A study of Homo sapiens with 6 samples.

Results

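The translation initiation and elongation factors were taken as every gene of the count table whose symbol begins with EIF or EEF followed by a digit. The eIF2 kinases, the eIF4E-binding proteins, pseudogenes, antisense genes and hyphenated read-throughs were left out, and at least 60 reads over the 6 libraries were required. Of 103 rows with such a symbol, 59 were members, out of 21631 genes in all, and no row was lost to the minimum. The rows left out were 33 with a pseudogene name, 8 named after a kinase or binding protein, and 3 antisense, divergent or read-through rows. All 59 members passed the expression filter and were tested.

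RNA was sequenced from A-375, an established human melanoma cell line, in 2 groups of 3 libraries. One group is labelled sgCTRL, the control, and the other sgSEPHS2, which the series describes as a knockout of SEPHS2, the enzyme that makes selenophosphate for selenocysteine. The labels give no dose or time, and do not say whether a group is 1 clone, a pool, or separate cultures. Any p-value therefore measures the spread between these libraries, which may be technical, and an effect of SEPHS2 loss cannot be told apart from a difference between founding cells.

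Initiation begins when eIF2, loaded with GTP and the initiator tRNA, joins the small ribosomal subunit together with eIF1, eIF1A, eIF3 and eIF5. The eIF4F complex, made of the cap-binding protein eIF4E, the scaffold eIF4G and the helicase eIF4A, brings the mRNA, and eIF5B then joins the large subunit. During elongation eEF1A delivers aminoacyl-tRNA, the eEF1B subunits recharge eEF1A with GTP, eEF2 moves the ribosome on, and eIF5A relieves stalled ribosomes. The mRNAs of many of these factors begin with a terminal oligopyrimidine (TOP) tract, a C followed by a run of C and T letters, through which mTOR signalling controls their translation.

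The start sites below are examples that carry such a run in factors called in either direction. EIF2D, EIF3F, EIF3J and EIF4E2, called higher, also had such a start and are not shown. A second annotated start of EEF1B2, not shown, had a run of only 4 letters. Each sequence holds 10 bases before and 20 bases from the annotated RefSeq start (GRCh38.p14), 5′ to 3′ on the gene's own strand, with the pyrimidine run in capitals.
EEF1A1 (chr6:73521013-73521042, minus strand): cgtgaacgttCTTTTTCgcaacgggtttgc
EEF1B2 (chr2:206159885-206159914, plus strand): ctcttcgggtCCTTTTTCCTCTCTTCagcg
EIF3K (chr19:38619178-38619207, plus strand): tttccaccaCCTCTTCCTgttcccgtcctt
EEF2 (chr19:3985444-3985473, minus strand): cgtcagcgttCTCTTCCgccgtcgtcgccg
EIF4B (chr12:53006446-53006475, plus strand): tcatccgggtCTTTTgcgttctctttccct
EEF1A1, EEF1B2 and EIF3K were higher in the libraries labelled knockout, and EEF2 and EIF4B were lower, with values given under their complexes. The calls of EEF1B2, EEF2 and EIF4B were each lost without some single libraries and with a trend in transcript length and GC content removed, while those of EEF1A1 and EIF3K held in every setting tried at that threshold.

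Libraries held 34606145 to 43405579 counted reads each. The first principal component, with 82.6% of the variance, separated the groups, and Pearson's r of log2 CPM across genes was at least 0.99634 between libraries of 1 group. CPM is a read count adjusted for library size with edgeR's TMM factors. SEPHS2 itself was higher, not lower, in the libraries labelled knockout (173 ± 3.85 against 156 ± 3.32 CPM in control, SD, n = 3 per group, 0.15 in log2, adjusted p = 0.00401 by edgeR, no overlap), so directions rest on the labels. Of 8 melanocyte lineage markers, 5 had a mean of at least 1 CPM, and the summed level of all 8 was 663 to 691 CPM in control and 614 to 640 CPM in the other group. SOX10 made up most of it, while TYR had no read in the control libraries and DCT was under 0.2 CPM in all 6 libraries. Summed markers of epithelium (3 of 4 in the table) were 0.902 to 1.83 CPM in control and 2 to 2.55 CPM in the other group. Those of blood (1 of 4 in the table) were at most 0.301 CPM, of endothelium 6.49 to 7.99 and 5.65 to 6.83 CPM, and of fibroblasts 13.5 to 16.4 and 16.4 to 19.8 CPM. Their part in the results was not tested.

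Most factor mRNAs that differed were slightly higher in the libraries labelled knockout, while 2 minor paralogs, EEF1A2 and EIF4E3, were far lower. In bulk samples such as these, fewer cells of a type and less RNA per cell cannot be told apart. By edgeR's quasi-likelihood test at an adjusted p under 0.05, 22 of the 59 members rose, 6 fell and 31 did not pass. Together 28 of 59 differed, where 45.4% of all 16910 tested genes did. That is 37.3% higher and 10.2% lower, beside 22.0% higher and 23.4% lower among all genes tested. Since factor mRNAs are abundant, the same shares were read among 9956 tested genes whose mean reached 10 CPM, where 30.2% were higher and 24.8% lower. Of the 54 members at that level 22 were higher and 5 lower (40.7% and 9.26%). Except where stated, the shares set beside each complex below are those of all genes tested, whatever their level. The median log2 fold change of the members, libraries labelled knockout over control, was 0.10, against 0.01 for all genes. The rises were small, from 1.07-fold for EIF3F to 1.38-fold for EIF5AL1. No member rose 2-fold and 2 fell by more than 2-fold, beside 1.25% and 5.67% of all genes. The groups did not overlap for 26 members that were higher and 6 that were lower, where 26.5% and 25.6% of all genes showed this (52.1% in either direction).

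**Figure D1:**
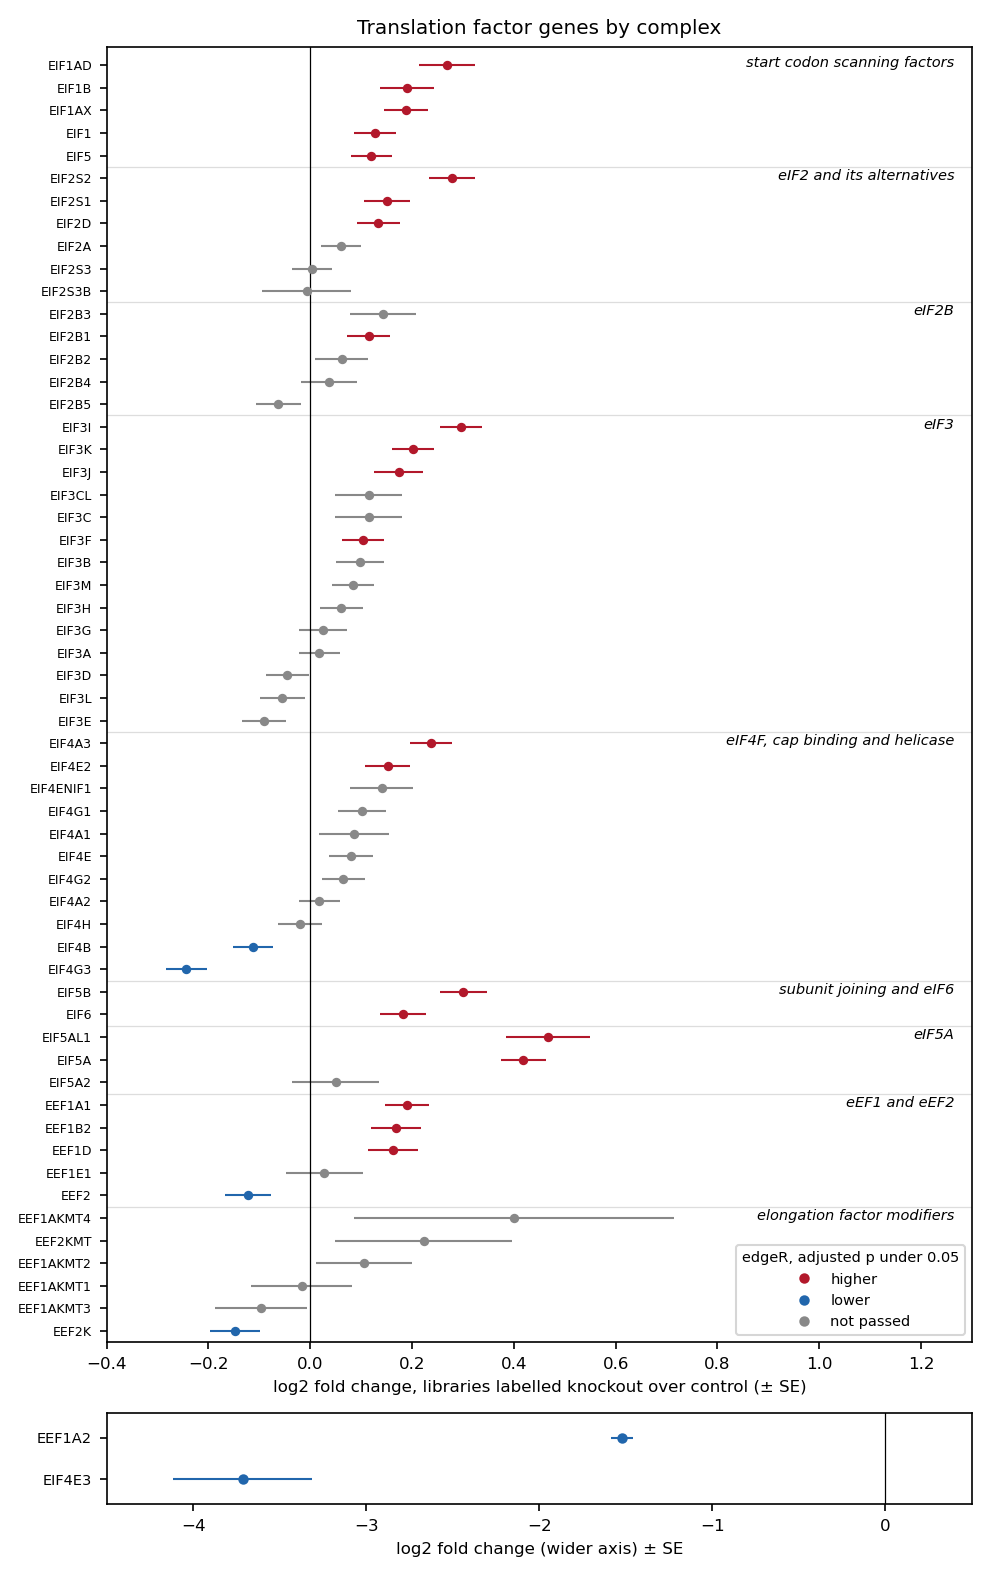
Log2 fold change with its standard error for each of the 59 factor genes, grouped by complex, with EEF1A2 and EIF4E3 on a wider axis below. Red and blue points passed edgeR's test at an adjusted p under 0.05. The 5 genes grouped as start codon scanning factors are all red, and the 2 genes of the lower panel lie at -1.52 and -3.71.

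Summed over 58 members, with the identical EIF3C and EIF3CL rows counted once, factor mRNAs took 2.09% ± 0.0653 of scaled reads in the control libraries and 2.25% ± 0.0121 in those labelled knockout. Every library labelled knockout, at 2.23, 2.25 and 2.26%, lay above every control library, at 2.04, 2.16 and 2.06%. EEF1A1 alone made up 40.6% ± 0.818 of the factor reads in control and 43.0% ± 1.101 in the other group. With EEF1A1 taken out of the sum, knockout replicate 3 lay below control replicate 2. The groups of the remaining sum thus overlapped, and the separation of the full sum depends on that gene.

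**Figure D2:**
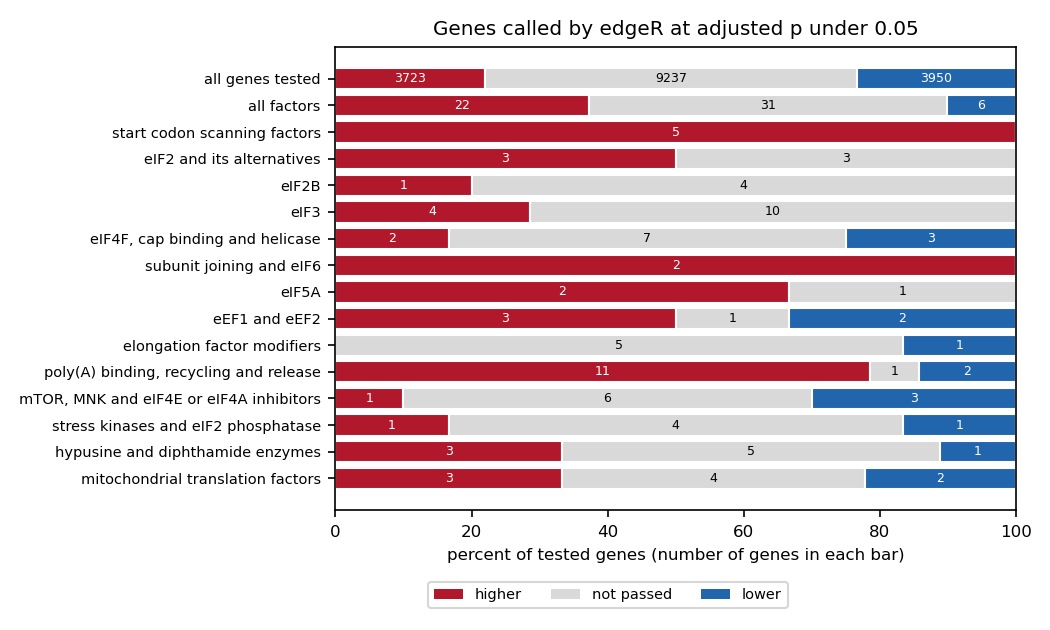
Share of tested genes called higher, not passed or lower by edgeR (adjusted p under 0.05) for all genes, all factors, each complex and the related gene lists, with gene counts in the bars. The genes grouped as start codon scanning factors (5 of 5) and subunit joining factors (2 of 2) hold none outside the higher class. The eIF4F group and the elongation factors hold both directions.

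All 5 genes grouped as start codon scanning factors rose, beside 22.0% of all genes, with EIF1AD placed there only for its eIF1A-like domain. EIF1AD, which carries an eIF1A-like domain, had 30.0, 31.5 and 28.96 CPM in the control libraries and 36.6, 37.6 and 34.7 CPM in those labelled knockout, which is 0.27 ± 0.06 (SE) in log2 fold change, with an adjusted p of 4.42e-04 by edgeR. EIF1AX, the factor that promotes scanning, had 189, 185 and 179 CPM against 221, 205 and 204 CPM (0.19 ± 0.04 SE in log2, adjusted p = 0.00121 by edgeR). In both genes every library labelled knockout was above every control library. The EIF1AX row is identical to that of another symbol, LOC124905557, so its reads cannot be assigned to 1 gene with certainty.

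EIF1, which guards start codon choice, had 411, 416 and 408 CPM in control and 454, 464 and 431 CPM in the other group (0.13 in log2, adjusted p = 0.0146 by edgeR). Its close paralog EIF1B had 36.4, 36.1 and 35.1 CPM against 42.1, 42.5 and 38.3 CPM (0.19, adjusted p = 0.00623 by edgeR). EIF5, which triggers GTP hydrolysis on eIF2, had 181, 184 and 183 CPM against 207, 196 and 193 CPM (0.12, adjusted p = 0.0207 by edgeR). The groups did not overlap in any of the 3 genes. The EIF1 call was lost without control replicate 3 (adjusted p = 0.0663) and also without knockout replicate 2 (adjusted p = 0.0697). That of EIF5 was lost without control replicate 1, 2 or 3 (adjusted p = 0.075, 0.0502 and 0.0609) and also without knockout replicate 1 (adjusted p = 0.0637). With a smooth trend in transcript length and GC content removed, an alternative chosen after seeing the data, EIF1 and EIF1B did not pass (0.08 and 0.03 in log2, adjusted p = 0.0977 and 0.714 by edgeR).

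The 3 subunits of eIF2, the GTP-binding complex that is phosphorylated on its alpha subunit under stress, did not all pass the test. Of these, 2 rose, beside 22.0% of all genes, and 1 did not pass. EIF2S2, the beta subunit, had 279, 305 and 286 CPM in control and 371, 345 and 339.6 CPM in the libraries labelled knockout, which is 0.28 ± 0.05 (SE) in log2 fold change, with an adjusted p of 3.34e-05 by edgeR. EIF2S1, the alpha subunit, had 143, 147 and 150.2 CPM against 173, 161 and 155 CPM (0.15 ± 0.04 SE in log2, adjusted p = 0.00888 by edgeR). EIF2S3, the gamma subunit, had 605, 609.6 and 623 CPM against 606, 622 and 614 CPM (0.00 ± 0.04 SE in log2, adjusted p = 0.949 by edgeR). Both groups of EIF2S3 thus covered the same range, whereas those of EIF2S1 and EIF2S2 did not overlap. EIF2S3B, a near copy of EIF2S3, stood at -0.01 (adjusted p = 0.957 by edgeR).

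Single-chain factors that can act beside eIF2 differed little. EIF2D, which acts in initiation and recycling, had 81.5, 83.5 and 85.1 CPM in control and 91.6, 91.6 and 91.2 CPM in the other group (0.13 in log2, adjusted p = 0.0129 by edgeR). EIF2A had 239.6, 241 and 242 CPM against 248, 249 and 256 CPM (0.06, adjusted p = 0.226 by edgeR). Groups did not overlap in either gene, but only EIF2D passed. Without control replicate 1 the calls of EIF2D (adjusted p = 0.0703) and EIF2S1 (adjusted p = 0.0543) were lost.

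Of the 5 subunits of eIF2B, the factor that recharges eIF2 with GTP, 1 rose and none fell, beside 22.0% and 23.4% of all genes. EIF2B1, the regulatory alpha subunit, had 122, 131 and 129 CPM in control and 141, 135 and 139 CPM in the libraries labelled knockout (0.12 in log2, adjusted p = 0.0317 by edgeR). That call was lost without control replicate 1 or 3 (adjusted p = 0.179 and 0.0707), without knockout replicate 1 or 3 (adjusted p = 0.0587 and 0.0637), and with the length and GC trend removed (0.06, adjusted p = 0.193). EIF2B5, the catalytic epsilon subunit, had 67.4, 68.8 and 70.2 CPM against 66.7, 66.5 and 64.4 CPM (-0.06, adjusted p = 0.273 by edgeR). EIF2B3, the gamma subunit, had 28.0, 29.1 and 31.2 CPM against 33.7, 29.3 and 34.5 CPM (0.14, adjusted p = 0.078 by edgeR), and passed without control replicate 3 (adjusted p = 0.048) and also without knockout replicate 2 (adjusted p = 0.0116). EIF2B2 had 39.4, 42.0 and 37.8 CPM against 41.1, 42.3 and 41.1 CPM (0.06, adjusted p = 0.369 by edgeR). EIF2B4 stood at 0.04. The groups of EIF2B2, EIF2B3 and EIF2B4 overlapped, and those of EIF2B5 did not.

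Of the 13 distinct eIF3 subunit rows, 4 rose (30.8%, beside 30.2% of genes whose mean reached 10 CPM), none fell and 9 did not pass, with a median log2 fold change of 0.08. EIF3I, a WD-repeat subunit, had 344, 370.0 and 359.9 CPM in control and 434, 440.1 and 443 CPM in the other group, which is 0.30 ± 0.04 (SE) in log2 fold change, with an adjusted p of 4.51e-06 by edgeR. EIF3K, a small subunit of the eIF3 octamer, had 181, 187 and 175 CPM against 206, 213 and 205 CPM (0.20 ± 0.04 SE in log2, adjusted p = 4.38e-04 by edgeR). EIF3J, a loosely bound subunit, had 128, 141 and 145 CPM against 162, 152 and 152 CPM (0.17, adjusted p = 0.00526 by edgeR). The groups did not overlap in any of these subunits. The EIF3J call was lost without control replicate 1 (adjusted p = 0.0597) and with the length and GC trend removed (0.08, adjusted p = 0.181).

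EIF3F, an MPN-domain subunit, had 142, 151 and 145 CPM in control and 152, 160.4 and 158 CPM in the libraries labelled knockout (0.10 in log2, adjusted p = 0.0487 by edgeR). This call sat at the threshold. It was lost with RLE or upper-quartile factors, without the filter, with the stricter filter, with DESeq2 and with 1 of each identical set kept (adjusted p = 0.0611 to 0.0679). It was also lost without control replicate 1 or 3 (adjusted p = 0.197 and 0.141) and also without knockout replicate 2 or 3 (adjusted p = 0.139 and 0.0969).

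The large scaffold subunits EIF3A, EIF3B and EIF3C had log2 fold changes of 0.02, 0.10 and 0.11, and none passed (adjusted p = 0.757, 0.0976 and 0.17 by edgeR). EIF3E, which contacts eIF4G, had -0.09 (adjusted p = 0.0891 by edgeR), the lowest value in the complex. EIF3E passed as lower in some settings, without control replicate 1 (-0.13, adjusted p = 0.0307), with at least 1 CPM required in 3 libraries (adjusted p = 0.0496), with DESeq2 (adjusted p = 0.0464) and with the length and GC trend removed (-0.22, adjusted p = 5.49e-05). EIF3A and EIF3B passed as higher once that trend was removed (0.11 and 0.16, adjusted p = 0.0143 and 0.00342). EIF3B and EIF3C also passed without knockout replicate 3 (adjusted p = 0.0085 and 0.0365), and EIF3M without knockout replicate 1 (adjusted p = 0.0466). EIF3C and EIF3CL, near-identical copies on chromosome 16, held the same counts in every library and were counted as 1.

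Per kilobase of annotated exon (GENCODE release 29), the control level of eIF3 subunit mRNAs ran from 5.3 CPM per kb for EIF3C to 207 CPM per kb for EIF3I. EIF3E and EIF3A followed at 114 and 111 CPM per kb, a difference smaller than the spread of EIF3E over its libraries. The EIF3C value is uncertain, since the same counts under the exon length of EIF3CL give 11.98 CPM per kb and the treatment of multi-mapped reads is not known. Exon lengths include long alternative exons, so the level of a gene such as EIF3F may be understated. The position of EIF3I at the top of this order was the same in both groups, with 255 CPM per kb in the libraries labelled knockout.

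**Figure D3:**
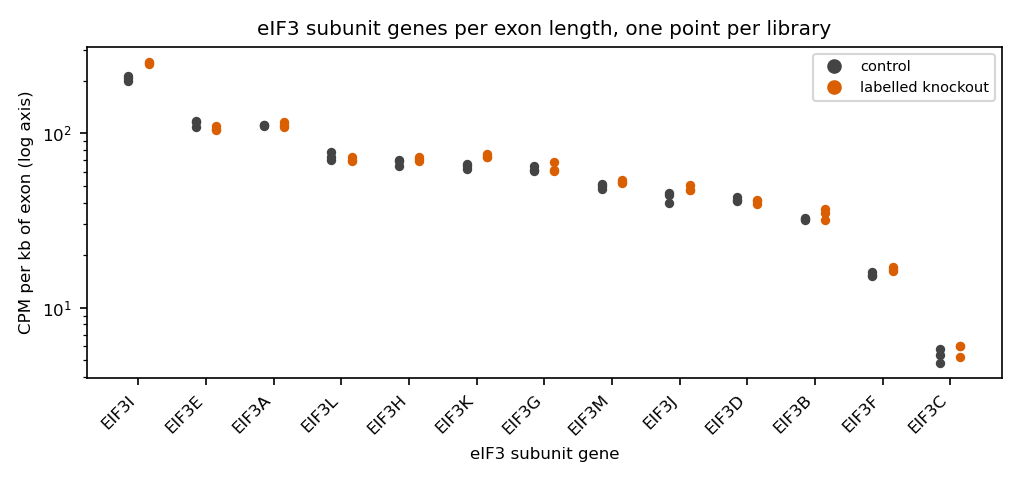
CPM per kilobase of exon (log axis) for 13 eIF3 subunit genes, 1 point per library, dark for control and orange for the libraries labelled knockout. EIF3I is the highest in both groups, at means of 207 and 255 CPM per kb, and most other subunits overlap between the groups.

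Among the eIF4F and cap-binding genes 2 of 12 rose and 3 fell (16.7% and 25%, beside 22.0% and 23.4% of all genes). The largest difference of all members was that of EIF4E3 (chromosome 3, 71659363 to 71754773, GRCh38, protein-coding in RefSeq), a cap-binding paralog of eIF4E. Its reads numbered 79, 50 and 67 in control and 2, 8 and 4 in the libraries labelled knockout. The highest library labelled knockout held under 0.2 CPM and the lowest control library 1.211 CPM. The control group thus had 13.4 times more (95% exact conditional binomial interval 7.78 to 24.9, counting error only), and the fitted log2 fold change was -3.71 ± 0.40 (SE), at an adjusted p of 1.66e-07 by edgeR. EIF4E3 is a minor form here, at 2.69% of the level of EIF4E per kilobase of exon in the control group.

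EIF4E, which binds the mRNA cap, had 74.6, 78.5 and 78.1 CPM in control and 81.3, 82.3 and 80.8 CPM in the other group (0.08 ± 0.04 SE in log2, adjusted p = 0.146 by edgeR). Its groups did not overlap, although it did not pass, and it passed after removal of the length and GC trend (0.23, adjusted p = 3.01e-04). EIF4E2, a cap-binding paralog that can repress translation, had 63.3, 65.2 and 63.2 CPM against 70.8, 72.7 and 69.5 CPM (0.15 ± 0.04 SE in log2, adjusted p = 0.0075 by edgeR), with no overlap. EIF4ENIF1, which carries eIF4E into the nucleus, stood at 0.14 (adjusted p = 0.0716 by edgeR), and at 0.19 with that trend removed (adjusted p = 0.0139).

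The scaffold genes split. EIF4G3 had 326, 327 and 337 CPM in the control libraries and 275, 273 and 288 CPM in those labelled knockout, which is -0.24 ± 0.04 (SE) in log2 fold change, with an adjusted p of 4.34e-05 by edgeR. EIF4G1, the main scaffold, had 425, 408 and 403 CPM against 476, 436 and 415 CPM (0.10 ± 0.05 SE in log2, adjusted p = 0.0843 by edgeR). The groups of EIF4G1 overlapped and those of EIF4G3 did not. EIF4G2, a scaffold-like factor without the eIF4E site, stood at 0.06 (adjusted p = 0.231 by edgeR). EIF4G1 passed without knockout replicate 3 (0.15, adjusted p = 0.0184) and with the replicate number as a block (adjusted p = 0.0358). With the length and GC trend removed, EIF4G1 and EIF4G2 both passed as higher (0.25 and 0.14, adjusted p = 4.10e-05 and 0.00284).

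EIF4A3, the helicase of the exon junction complex, is also known to bind the selenocysteine insertion elements of some selenoprotein mRNAs. It had 84.0, 82.6 and 83.8 CPM in control and 99.0, 98.8 and 97.4 CPM in the libraries labelled knockout, which is 0.24 ± 0.04 (SE) in log2 fold change, with an adjusted p of 7.59e-05 by edgeR. The gap between the groups was many times the spread within them. EIF4A2 was at 423 ± 12.7 and 428 ± 5.00 CPM (0.02 in log2, adjusted p = 0.75 by edgeR). EIF4A1, the main helicase of eIF4F, had only 18.5, 17.2 and 16.5 CPM against 18.2, 19.5 and 17.7 CPM (0.09, adjusted p = 0.336 by edgeR). Of its exon length 48.6% is shared on the same strand with other annotated genes, among them the read-through SENP3-EIF4A1, and the row of its processed copy EIF4A1P10 held 4682 reads over the control group where EIF4A1 held 2150. The EIF4A1 level is therefore uncertain. EIF4B, a stimulator of the helicase, had 956, 985 and 967 CPM against 889.9, 896 and 903 CPM (-0.11, adjusted p = 0.0214 by edgeR). The groups of EIF4B did not overlap. Its call was lost without control replicate 2 or 3 (adjusted p = 0.0814 and 0.0592), without knockout replicate 2 (adjusted p = 0.0501) and with the length and GC trend removed (-0.08, adjusted p = 0.0662). EIF4H, another stimulator, stood at -0.02.

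Both factors that act on the large subunit rose, beside 22.0% of all genes. EIF5B, the GTPase of subunit joining, had 195, 193 and 214 CPM in control and 256, 247 and 239 CPM in the other group, which is 0.30 ± 0.05 (SE) in log2 fold change, with an adjusted p of 1.49e-05 by edgeR. EIF6, which keeps the large subunit from joining too early, had 96.0, 106 and 98.5 CPM against 114, 117 and 110.0 CPM (0.18 ± 0.05 SE in log2, adjusted p = 0.00248 by edgeR). In neither gene did the groups overlap.

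EIF5A (chromosome 17, 7306999 to 7312463, GRCh38, protein-coding in RefSeq) had the smallest adjusted p among the members that rose. Its product carries hypusine, a modified lysine found in eIF5A proteins, and eases peptide bond formation at stalled ribosomes. The control libraries held 366, 386 and 373 CPM and those labelled knockout 525, 508 and 471 CPM, which is 1.34-fold, or 0.42 ± 0.04 (SE) in log2, with an adjusted p of 1.24e-07 by edgeR. The lowest library labelled knockout was well above the highest control. EIF5AL1, a copy named for its likeness to EIF5A, had 15.7, 18.1 and 13.95 CPM against 23.9, 20.6 and 21.7 CPM (0.47, adjusted p = 8.40e-05 by edgeR), and reads of the 2 genes may be exchanged. EIF5A2, a second eIF5A gene, had 11.6, 13.3 and 11.5 CPM against 13.4, 12.8 and 11.6 CPM (0.05, adjusted p = 0.679 by edgeR), and its groups overlapped.

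Of the 6 eEF1 and eEF2 genes, 3 rose and 2 fell, beside 22.0% and 23.4% of all genes. EEF1A1, the main carrier of aminoacyl-tRNA and the most abundant factor mRNA, had 8182, 8966 and 8248 CPM in control and 9373, 9638 and 9961 CPM in the libraries labelled knockout (0.19 ± 0.04 SE in log2, adjusted p = 0.00121 by edgeR). EEF1A2 (chromosome 20, 63488014 to 63499083, GRCh38, protein-coding in RefSeq), its paralog of muscle and neurons, went the other way. Its reads numbered 2100, 2111 and 2055 in control and 551, 749 and 788 in those labelled knockout, or 49.8, 51.1 and 51.5 against 16.1, 17.4 and 19.4 CPM. Every library labelled knockout was far below every control library. The fall was 2.87-fold (-1.52 ± 0.06 SE in log2, adjusted p = 3.79e-14 by edgeR).

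The exchange factor subunits EEF1B2 and EEF1D, which recharge eEF1A, rose together with EEF1A1. EEF1B2 had 219, 251 and 238 CPM in control and 262, 278 and 255 CPM in the other group (0.17 in log2, adjusted p = 0.00728 by edgeR). EEF1D had 74.7, 77.9 and 72.8 CPM against 87.2, 87.0 and 78.2 CPM (0.16, adjusted p = 0.01 by edgeR). Both separated the groups by a narrow margin, and part of the EEF1D exons lies opposite other genes, whose reads cannot be told apart without strand. EEF1B2 lost its call without control replicate 1 or knockout replicate 2 (adjusted p = 0.079 and 0.0526) and with the length and GC trend removed (0.06, adjusted p = 0.241). EEF1D lost it without control replicate 3 or knockout replicate 2 (adjusted p = 0.0571 and 0.0536). EEF1E1, a scaffold protein of the aminoacyl-tRNA synthetase complex, stood at 0.03 (adjusted p = 0.8 by edgeR).

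EEF2, the GTPase of translocation, had 1105, 1169 and 1033 CPM in control and 1006, 1035 and 997 CPM in the libraries labelled knockout (-0.12 ± 0.05 SE in log2, adjusted p = 0.0314 by edgeR). The groups overlapped. The call was lost without control replicate 1 or 2 (adjusted p = 0.0721 and 0.214), without knockout replicate 3 (adjusted p = 0.0897) and with the length and GC trend removed (-0.05, adjusted p = 0.307).

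**Figure D4:**
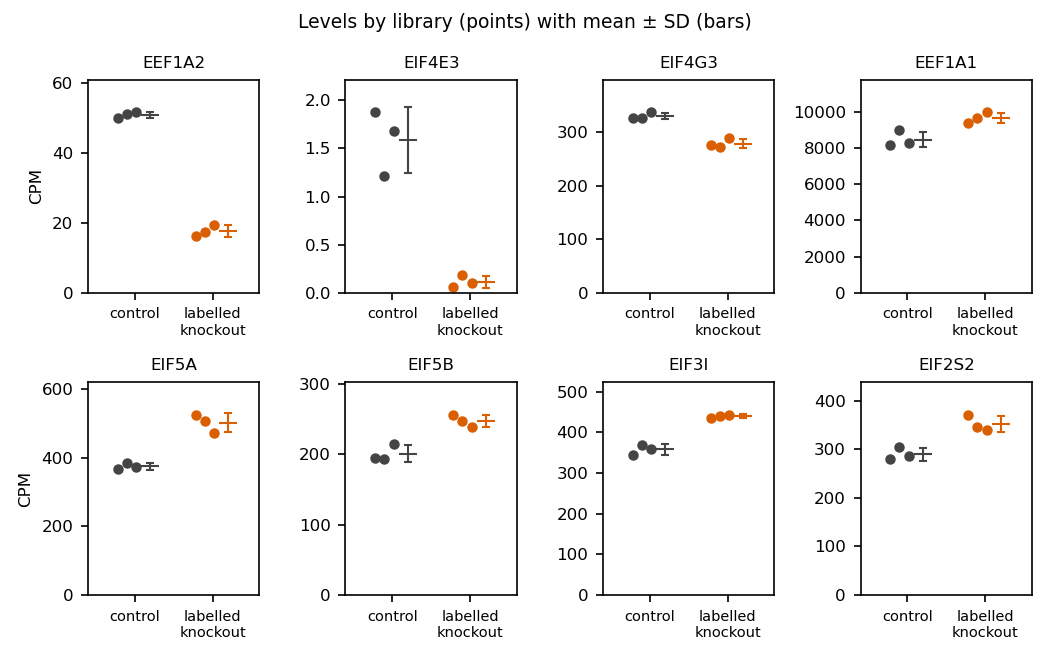
CPM in each library for 8 factor genes, with points for libraries and a bar for the mean ± SD of 3; each axis starts at 0. EEF1A2, EIF4E3 and EIF4G3 are lower and the other 5 genes higher in the libraries labelled knockout, with no overlap between the groups in any of the 8.

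Of the 6 genes that modify elongation factors, 1 fell, beside 23.4% of all genes. EEF2K, the kinase that inhibits eEF2, had 57.8, 54.5 and 59.9 CPM in control and 51.5, 51.2 and 52.7 CPM in the other group (-0.15 in log2, adjusted p = 0.0168 by edgeR). Its groups did not overlap, but the call was lost without control replicate 3 (adjusted p = 0.0943) and also without knockout replicate 2 (adjusted p = 0.0541), and with the length and GC trend removed the sign turned (0.02, adjusted p = 0.735). The methyltransferase genes were low and none passed. EEF2KMT, which methylates eEF2, had 4.22, 4.99 and 2.76 CPM against 5.10, 5.11 and 3.80 CPM (0.22, adjusted p = 0.325 by edgeR). EEF1AKMT4 had 0.569, 0.823 and 0.676 CPM against 0.791, 1.09 and 0.839 CPM (0.40, SE 0.31, edgeR adjusted p = 0.327), and EEF1AKMT2 had 8.40, 8.04 and 7.64 CPM against 8.61, 8.38 and 8.93 CPM (0.11, adjusted p = 0.391 by edgeR). All 3 overlapped between groups. EEF1AKMT1, the only member on chromosome 13, stood at -0.02, where the median of 319 tested genes of that chromosome was -0.40.

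Paralogs of 1 factor were then compared within each library, as the reads of the first-named gene per 1000 reads of the second, a ratio that does not depend on scaling between libraries. Of 7 pairs, 6 did not overlap between the groups, where 52.1% of all single genes did not overlap in CPM. With 3 against 3 libraries the exact two-sided permutation test cannot go below p = 0.10, which those 6 reached (0.117 adjusted over the 7 pairs). EEF1A2 had 6.09, 5.70 and 6.24 reads per 1000 EEF1A1 reads in control, against a mean of 1.83 ± 0.117 in the other group, a difference in log2 ratio of -1.72. For EIF4E3 to EIF4E the means were 20.7 ± 4.89 and 1.40 ± 0.784 reads per 1000 (log2 difference -4.01). EIF4G3 to EIF4G1 had 801.5 ± 34.6 and 633 ± 58.4 (log2 difference -0.34), and EIF5A2 to EIF5A 32.4 ± 1.94 and 25.1 ± 0.48 (log2 difference -0.37). In these 4 pairs the first-named gene thus had fewer reads per 1000 of the second in every library labelled knockout than in any control library, by differences that ranged from -0.34 to -4.01. EIF4E2 to EIF4E and EIF1B to EIF1 differed slightly the other way (0.07 and 0.06), and EIF4A2 to EIF4A1 overlapped (log2 difference -0.07, exact permutation p = 0.40).

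**Figure D5:**
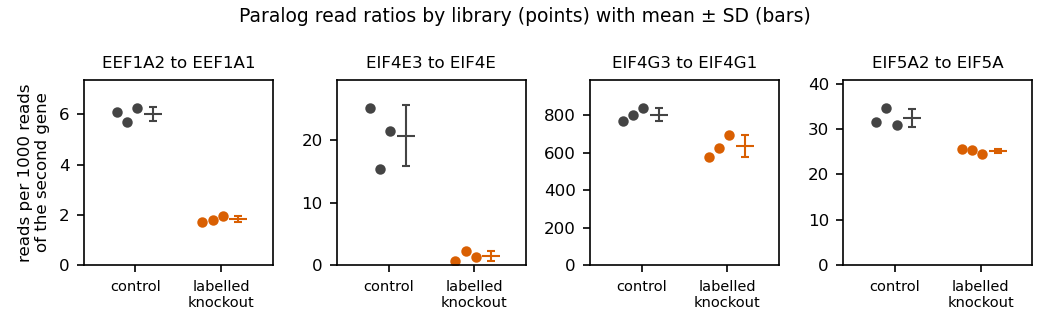
Reads of the first gene per 1000 reads of the second in each library, for 4 paralog pairs, with mean ± SD of 3; axes start at 0. In all 4 pairs the libraries labelled knockout lie below the control libraries, from a mean of 6.01 to 1.83 for EEF1A2 to EEF1A1.

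A list of 13 TOP mRNAs among the factors, drawn from general knowledge, held 12 members (EEF1G had no row in the counts read here). Of these 5 rose (41.7%), 2 fell (16.7%) and 5 did not pass, beside 22.0% higher and 23.4% lower among all genes tested. Their median log2 fold change was 0.04, against 0.11 for the other 47 members, of which 17 rose (36.2%) and 4 fell (8.51%). In the RefSeq promoter table, 47 of the 59 members had a start-site window. A pyrimidine start was read as a C within 3 bases of the annotated start that opens a run of at least 5 C or T letters. It was present in 7 of 7 TOP list genes with a window and in 10 of the other 40, beside 16.0% of all 27305 genes in that table. Of the 17 members with such a start 7 rose and 2 fell, with a median of 0.08. Of the 30 without one 13 rose and 3 fell, with a median of 0.12. Among all genes tested 22.0% were higher and 23.4% lower, and among those whose mean reached 10 CPM 30.2% and 24.8%. Of the members with a pyrimidine start, the 2 that fell, EEF2 and EIF4B, each lost their call in 3 of the 6 fits with 1 library left out. Both also lost it with the length and GC trend removed (values under their complexes). Of the 7 that rose, EEF1B2, EIF2D, EIF3F and EIF3J also lost their call in fits with 1 library left out. EEF1A1, EIF3K and EIF4E2 kept it in each setting at that threshold.

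The E-box CACGTG, a palindrome bound by MYC and related factors, was searched in the 300 bases around each start. It was found in 12 of 47 members with a window (25.5%) and in 8.77% of all genes. Of these 12 members 4 rose and 2 fell, and of the 35 others 16 rose and 3 fell. Beside them stand 22.0% higher and 23.4% lower among all genes tested, and 30.2% and 24.8% among those whose mean reached 10 CPM. The 2 with the motif that fell were EEF2K and EIF4B. EEF2K lost its call without control replicate 3 or knockout replicate 2 and turned in sign with the length and GC trend removed (0.02, adjusted p = 0.735 by edgeR). EIF4B lost its call in 4 settings, so the lower calls with the motif are not stable. Of the 4 that rose, EIF3F lost its call in 10 of 15 settings. EIF1B lost it with the length and GC trend removed (0.03, adjusted p = 0.714 by edgeR), while EIF3K and EIF4A3 kept it in each setting at that threshold. The windows of EIF4A3, which rose, and of EEF2K are shown, with the E-box in capitals, 12 bases on each side, on the gene's own strand.
EIF4A3 (chr17:80147232-80147261, minus strand): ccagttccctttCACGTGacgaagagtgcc
EEF2K (chr16:22206207-22206236, plus strand): cctgggggcggcCACGTGagcgccacgccg
The ATF4-type element TGATGNAA, read on both strands, was found in 1 member, EIF4E3, and in 4.46% of all genes. A match is a description of these letters and not of binding.

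The other translation genes were taken from a list of 50 that are no members, of which 49 were tested. Of these 19 rose and 9 fell (38.8% and 18.4%, beside 22.0% and 23.4% of all genes). Among genes whose mean reached 10 CPM, 30.2% were higher and 24.8% lower. Genes for poly(A) binding, ribosome recycling and release had 11 of 14 members higher and 2 lower, beside 22.0% and 23.4% of all genes, and a median log2 fold change of 0.16. Of the 11, HBS1L, a ribosome rescue factor, lost its call in 10 of 15 settings, among them DESeq2 (adjusted p = 0.0809) and every fit with 1 library left out but that without knockout replicate 2 (adjusted p = 0.0608 to 0.136). MCTS1, the partner of DENR, lost it without control replicate 1 (adjusted p = 0.0678), without knockout replicate 2 (adjusted p = 0.128) and with the length and GC trend removed. PABPC4, a poly(A)-binding protein, rose from 196 ± 2.30 to 258 ± 15.6 CPM (0.39, SE 0.04, edgeR adjusted p = 3.18e-07). DENR and ABCE1, which take part in ribosome recycling, rose by 0.30 and 0.29 (adjusted p = 4.87e-06 and 6.21e-05 by edgeR), and PAIP1, a partner of poly(A)-binding protein, by 0.22. Named after their values were seen, the minor paralogs PAIP2B (-0.43, adjusted p = 0.00641 by edgeR) and GSPT2 (-0.31, adjusted p = 0.00183 by edgeR) fell, while the main forms PAIP2 and GSPT1 rose by 0.13 each. The call of PAIP2 was lost without control replicate 1 (adjusted p = 0.103) and with the length and GC trend removed (0.02, adjusted p = 0.701), and that of GSPT1 without control replicate 2 (adjusted p = 0.0581).

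Of 6 genes for stress kinases and the eIF2 phosphatase, which act upstream of eIF2, 1 rose and 1 fell, beside 22.0% and 23.4% of all genes. EIF2AK2, the kinase PKR, stood at 0.15 (adjusted p = 0.00735, and 0.0512 without control replicate 3 by edgeR), and PPP1R15B, which targets the phosphatase to eIF2, at -0.16 (adjusted p = 0.00303 by edgeR). Of 10 tested genes of mTOR and MNK signalling and eIF4E or eIF4A inhibitors 1 rose and 3 fell, beside the same shares of all genes. MKNK1, a kinase that phosphorylates eIF4E, rose by 0.25 (adjusted p = 7.15e-04 by edgeR), and EIF4EBP2, an inhibitor of eIF4E, had -0.16 (adjusted p = 0.00435 by edgeR), a call lost with the length and GC trend removed (-0.05, adjusted p = 0.365). RPTOR and RPS6KB1 had -0.16 and -0.14 (adjusted p = 0.0247 and 0.0129 by edgeR). RPTOR lost its call in 4 of 6 fits with 1 library left out, without control replicate 1 or 2 (adjusted p = 0.053 and 0.133) and also without knockout replicate 2 or 3 (adjusted p = 0.167 and 0.0573). RPS6KB1 lost it without control replicate 3 or knockout replicate 2 (adjusted p = 0.0576 and 0.0528).

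Of 9 genes for hypusine and diphthamide, the modifications of eIF5A and eEF2, 3 rose and 1 fell, beside 22.0% and 23.4% of all genes. Of the 3, DPH2 and DPH6 both lost their call without control replicate 3 (adjusted p = 0.0995 and 0.0638) and without knockout replicate 2 (adjusted p = 0.0905 and 0.0584), which leaves DPH5. DHPS and DOHH, the enzymes that make hypusine, named after their values were seen, had log2 fold changes of -0.04 and -0.08 (adjusted p = 0.847 and 0.648 by edgeR), beside the rise of EIF5A. DPH1, of the first step of diphthamide synthesis, fell by 0.31 (adjusted p = 2.56e-04 by edgeR), and DPH5 rose by 0.21 (adjusted p = 0.00185 by edgeR), a call lost with the length and GC trend removed (adjusted p = 0.0591). EEFSEC, the elongation factor that delivers selenocysteine, had 12.7, 13.2 and 12.8 CPM in control and 11.1, 12.5 and 12.6 CPM in the other group (-0.09, SE 0.08, edgeR adjusted p = 0.395). Of 9 mitochondrial translation factors 3 rose and 2 fell (33.3% and 22.2%, beside 22.0% and 23.4% of all genes). The first share is near the 30.2% higher among genes whose mean reached 10 CPM, of which 24.8% were lower. Those that rose included MTIF2 at 0.27 (adjusted p = 7.95e-05 by edgeR) and MRRF at 0.25 (adjusted p = 2.05e-04 by edgeR). The third that rose, TUFM, lost its call without control replicate 1 or 3 (adjusted p = 0.0869 and 0.11) or knockout replicate 2 (adjusted p = 0.0858). Those that fell, MTRF1 and MTIF3 (-0.39 and -0.34), both lie on chromosome 13. Of 319 tested genes of that chromosome 66.1% were lower, with a median log2 fold change of -0.40.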

How the data were processed

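RNA-seq was made from 6 A-375 libraries, 3 labelled sgCTRL and 3 labelled sgSEPHS2, grouped by title. The authors deposited raw read counts per gene symbol; per the submitters' processing notes reads were handled with HISAT2 2.2.1 and featureCounts 2.0.6, beside FastQC 0.12.1 and SAMtools 1.21, on build GRCh38. The annotation, the strand setting and the handling of multi-mapped reads were not stated there, and 1108 genes had counts identical to another gene. From the counts, edgeR 4.0.16 (R 4.3.3) tested 16910 genes that passed filterByExpr, with TMM factors, quasi-likelihood F-tests and Benjamini-Hochberg adjustment over all tested genes. The edgeR fit was also run on simulated counts with few changed genes, unlike these data, so that run does not measure error rates here. Alternatives were RLE and upper-quartile factors, other filters, limma-voom 3.58.1, DESeq2 1.42.0, a replicate block, leaving out each library, a threshold of 0.01, and 2 chosen after seeing the data. These 2 were removal of a length and GC trend (mgcv 1.9.3, values for 93.5% of genes) and 1 of each identical set kept. Exon lengths and overlaps came from GENCODE release 29, and gene positions, gene types and start-site sequences from RefSeq. The members and gene lists were chosen with earlier results of these data known. Full values per library were given for the 4 members of each complex with the smallest adjusted p and for 8 factors whatever their result. Up to 4 related genes per list were named by smallest adjusted p, beside EEFSEC and exceptions stated in the text.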

Additional observations from a re-analysis of the deposited data

How the results depend on the processing

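Beside 22 higher and 6 lower members, RLE and upper-quartile factors gave 21 and 6, no filter 21 and 6, a minimum of 1 CPM in 3 libraries 21 and 7, limma-voom 22 and 6, and DESeq2 21 and 7. In these settings 15.7 to 24.9% of all genes tested were higher and 18.5 to 26.2% lower. Removing the length and GC trend, chosen after seeing the data, gave 23 and 4, beside 25.6% and 19.6% of all genes tested. Leaving out 1 library gave 15 to 24 higher and 4 to 6 lower, with the fewest higher calls without control replicate 1. Among all genes tested, these fits called 17.8 to 20.6% higher and 19 to 22.6% lower. The lowest of both shares, 17.8% and 19%, also came without control replicate 1. Of the members called, 13 of 22 higher and 3 of 6 lower kept their call in all 6 of these fits, and 12 and 3 did so in each of the 15 settings at that threshold. The 3 lower ones were EEF1A2, EIF4E3 and EIF4G3. At an adjusted p under 0.01, 16 members were higher and 3 lower, beside 16.3% and 18.4% of all genes tested. Of the related genes 12 were then higher and 7 lower, against 19 and 9. With the length and GC trend removed the sign turned for EEF2K (0.0222), RPTOR (0.0336) and MCTS1 (-0.0124), none of which then passed, and the cause was not tested. With the replicate number as a block 23 members were higher and 6 lower, EIF4G1 being the added member. Deviations of same-numbered libraries correlated at 0.0945, 0.0241 and 0.128, and those of the other pairs at -0.177 to 0.0973. Not every library correlated best with its own number. The labels do not say whether a shared number marks a batch, and so few libraries cannot decide it. Reads were few for the lowest members, such as EEF1AKMT4, whose log2 fold change had an SE of 0.31.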

Other observations

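Genes beside the 2 members that fell most were read after those values were seen. On the side of EIF4E3 where FOXP1, SAMMSON and MITF lie, these 3 tested genes were also lower in the libraries labelled knockout. Among all tested genes 23.4% were lower. The starts of FOXP1, SAMMSON and MITF lie at -705, -1660 and -1920 kb from that of EIF4E3, so they are not close to it. The next tested gene on that side, FRMD4B, had 0.06 (edgeR adjusted p = 0.508). The transcription factor FOXP1 had a log2 fold change of -2.64 (edgeR adjusted p = 6.36e-11) at a mean of 3.33 CPM. The melanoma non-coding RNA SAMMSON had -0.83 (edgeR adjusted p = 0.00107), and the melanocyte regulator MITF -0.35 (edgeR adjusted p = 1.24e-04). On the other side RYBP had 0.06 (edgeR adjusted p = 0.238) and SHQ1 0.22 (edgeR adjusted p = 9.21e-04). Further out on that side PSMD12P1, at a mean of 0.278 CPM, had 0.51 (edgeR adjusted p = 0.405). GXYLT2 had 0.00 (edgeR adjusted p = 0.99). Beside EEF1A2, the tested neighbours ARFGAP1, PPDPF and HELZ2 had -0.21, -0.31 and -0.36 (edgeR adjusted p = 2.35e-04, 0.00671 and 3.72e-05), each smaller in size than the -1.52 of EEF1A2. BIRC7, at a mean of 0.524 CPM, had -1.04 (edgeR adjusted p = 0.0266). The other 4 of its 8 tested neighbours did not pass, all under 1 CPM, with -0.94 for PTK6, -0.86 for SRMS, -0.44 for FLJ16779 and 0.16 for NKAIN4.

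Some rows left out as pseudogenes differed as well. EIF4A1P10 had 38.0 ± 2.79 CPM in control and 49.3 ± 1.51 CPM in the libraries labelled knockout (SD, n = 3 per group, log2 fold change 0.38, edgeR adjusted p = 1.10e-05), beside 0.09 for EIF4A1. EIF3FP3 had 0.36 (edgeR adjusted p = 0.00272) and EIF3FP2 -0.81 (edgeR adjusted p = 0.00628), beside 0.10 for EIF3F. Reads of a copy and its parent gene may be exchanged in these rows.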
